A study of Homo sapiens with 4 samples.

Results

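The cytosolic ribosome is built from ribosomal RNA and a set of ribosomal proteins, most of which are encoded by a single active gene. Genes named RPL encode proteins of the large subunit, and genes named RPS encode proteins of the small subunit. Their mRNAs are short and abundant in growing cells, and many start with a cytosine followed by an uninterrupted run of pyrimidines, the terminal oligopyrimidine (TOP) motif, through which mTOR signalling controls their translation. Most family members have also left processed pseudogenes in the genome, copies of the mRNA that lack introns. The genes described here were taken by name alone, as the rows named RPL or RPS with a number and, where present, a final A, together with RPLP0, RPLP1, RPLP2, RPSA, RPS4X and RPL36AL. This gave 78 of the 50868 rows, 47 for the large and 31 for the small subunit, and all 78 were among the 15222 genes with enough counts to be tested.

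A549 cells, a human lung adenocarcinoma line, were compared with and without overexpression of USP12, a ubiquitin-specific protease that removes ubiquitin from other proteins. Stranded mRNA libraries were sequenced from 2 samples of control cells and 2 samples of cells overexpressing human USP12, which the study introduced into its lines in pLVX lentiviral vectors. The control cells carried the empty vector, and which tag the sequenced USP12 carried was not given in the sources used here. No source says whether the replicates were separate cultures, so p-values measure only the spread between these samples, which may be technical.

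The values are raw counts of fragments per gene, which summed to between 14280081 and 16305356 per library, so that 3 counts corresponded to between 0.166 and 0.227 CPM, the counts scaled to a common library size. USP12 itself had 201 and 621 counts in the controls, against 24235 and 32274 counts with overexpression, in the direction of the labels. Its log2 fold change was 6.32 ± 0.57 (SE), with an adjusted p of 0.0975 in edgeR's quasi-likelihood test and 3.04e-30 in DESeq2's Wald test, so that even the overexpressed gene missed the threshold of 0.05 in the former. Of the epithelial keratin and adhesion markers, 6 of 6 had enough counts to be tested, as had 1 of 5 alveolar, 2 of 5 immune, 2 of 4 endothelial and 1 of 5 fibroblast markers. The surfactant genes SFTPA1, SFTPB and SFTPC and the leukocyte gene PTPRC had at most 1 count in any library, whereas the lysosomal gene CD68 had between 686 and 1044 counts, and the endothelial gene CDH5 had 136 and 96 counts in the controls and 2 and 5 with USP12. The part of such transcripts in the members' levels was not tested. The 2 control libraries stood further apart than the 2 USP12 libraries, with an SD of the log2 ratio over all tested genes of 1.32 against 0.62. In the headings of the count columns, a prefix that reads like a date sets control replicate 1 apart from the other 3 libraries, and whatever the prefix marks cannot be told apart from that library.

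The sequence around the transcription start shows what the members share beyond their names. RefSeq start sites (GRCh38.p14) were available for 63 of the 78 members. At least 1 start with a C and at least 4 further pyrimidines was present in 46 of these 63 genes (73.0%), against 5.14% of the 27305 genes of the same table. The uninterrupted pyrimidine run was between 5 and 19 bases long, with a median of 8 bases. The windows below, 15 bases before the start and 15 bases from the start onwards, are those of the members with the highest and lowest fold changes or the largest differences between the control libraries for which a start site was available. They are written 5′ to 3′ on the gene's strand, and capitals mark the start C and the pyrimidine run that follows it.
RPL11, chr1:23691791-23691820, plus strand: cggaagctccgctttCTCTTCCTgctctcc
RPS4X, chrX:72277234-72277263, minus strand: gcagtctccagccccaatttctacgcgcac
RPL14, chr3:40457324-40457353, plus strand: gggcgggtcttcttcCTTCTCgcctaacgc
RPS13, chr11:17077653-17077682, minus strand: ttccactctcgctctCCTTTCgttgcctga
RPL4, chr15:66504841-66504870, minus strand: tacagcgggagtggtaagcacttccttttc
RPLP0, chr12:120201097-120201126, minus strand: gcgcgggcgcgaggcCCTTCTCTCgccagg
RPL35, chr9:124861943-124861972, minus strand: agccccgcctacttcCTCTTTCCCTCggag
RPL36, chr19:5690280-5690309, plus strand: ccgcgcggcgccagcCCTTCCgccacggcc
RPS3, chr11:75399503-75399532, plus strand: gcccgcgagccacttCCTTTCCTTTCagcg
RPS19, chr19:41860240-41860269, plus strand: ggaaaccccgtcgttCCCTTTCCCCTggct
RPS10, chr6:34426055-34426084, minus strand: ccgcgcatgctccttCCTTTCCagccccgg
RPL26, chr17:8383179-8383208, minus strand: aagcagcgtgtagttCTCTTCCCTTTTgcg
RPS4X and RPL4 have no such run at the RefSeq start, and the other members shown do.

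Short motifs were searched on both strands from 250 bases before to 50 bases after the start. CCGGAAG, the core of the site bound by ETS-family factors such as GABP, was found in 22 of the 63 members (34.9%) and in 12.2% of all genes of the table. Its reverse complement can share bases with the pyrimidine run, so these features are not independent. AAGATGG, the core of the YY1 site, was found in 8 members (12.7%, against 7.11% of all genes), and GGGCGG, the GC box, in 37 members (58.7%, against 48.3%). The E-box CACGTG bound by MYC and MAX was found in 4 members (6.35%, against 8.77%), and TATAAA in 5 members (7.94%, against 14.0%). The 46 members with a pyrimidine run had a median log2 fold change between USP12 and control of -0.25, and the 17 without one had -0.17.

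The members covered a wide range of levels. Per length, taken from the shortest GENCODE 44 transcript with the gene's main coding sequence, the mean over the 4 libraries had a median of 556.5 CPM per kilobase over the members. Among the highest were RPL28 at 2101, RPL13A at 1695, RPLP0 at 1639 and RPL26 at 1635 CPM per kilobase, all of the large subunit. RPLP0 is the scaffold of the acidic stalk of the large subunit, onto which RPLP1 and RPLP2 assemble. The lowest were RPS28 at 1.02, RPL9 at 12.4 and RPL14 at 16.9 CPM per kilobase. The annotated RPL14 transcript is 7072 bases long for a coding length of 645 bases, so its level per length is understated if shorter 3′ ends are used.

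Low levels went together with sequence that occurs elsewhere in the genome. In windows of 100 bases along each transcript, 22 members had no exact copy elsewhere in GRCh38, 43 had some, and in 13 at least 50% of the windows were copied. The median level was 691 CPM per kilobase in members without a copy, 657 with some and 142 with most windows copied. RPL21 had all of its windows copied, at 21 other places, and a level of 17.2 CPM per kilobase. RPS27, RPL39 and RPL41 had 94.1%, 92.8% and 87.6% of their windows copied. RPS28, with 16.8%, and RPL14, with 3.16%, were low although most of their windows were not copied, and RPSA, with 64%, reached 1048 CPM per kilobase. The RPS28 transcript used was 1330 bases long for a coding length of 207 bases, so its copied share may be understated if shorter transcripts are used. RPS28 and RPL14 both had fewer counts than their pseudogene rows, at 80 against 17786 and 7085 against 12610. Across the 78 members, the share of copied windows and the log2 level per length had a Pearson correlation of -0.36 (Spearman -0.27), a description over genes that share libraries.

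**Figure D1:**
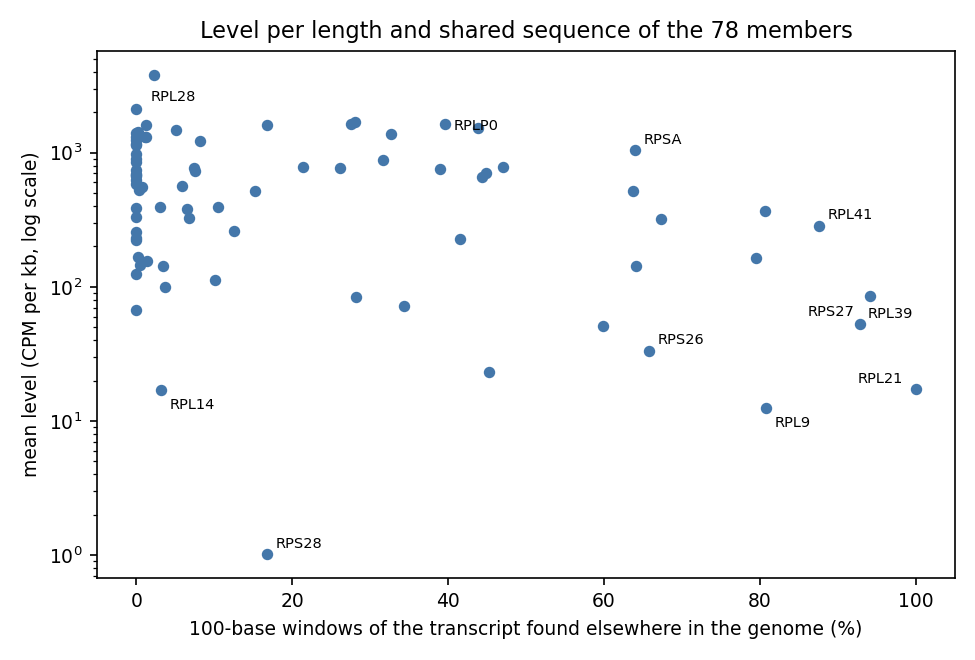
Each point is 1 of the 78 members, with the share of its 100-base transcript windows that occur exactly elsewhere in the genome (x axis, %) and its mean level over the 4 libraries (y axis, CPM per kilobase, log scale). Members with most windows copied reached at most 1048 CPM per kilobase (RPSA), while RPS28 was the lowest at 1.02.

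Rows of ribosomal protein pseudogenes held many of the counts. The table has 967 such rows, of which 329 had any count and 87 were tested. Of these 87, 0 were called at an adjusted p under 0.05 by edgeR or by DESeq2, and 1 was higher at an unadjusted p under 0.05. RPL13AP5, named as a pseudogene of RPL13A, had 7611 and 2971 CPM in the controls and 3728 and 3156 CPM with USP12. RPL13A itself had 3355 and 1292 CPM in the controls and 1560.0 and 1432 CPM with USP12. The pseudogene row was thus higher than the gene in all 4 libraries, and both were highest in control replicate 1. Summed over the libraries, 13 members had fewer counts than the pseudogene rows of their name. RPS28 had 80 counts against 17786 on its pseudogene rows, RPL21 571 against 18634, RPL9 517 against 16735, RPS26 1211 against 21067, and RPL23A 4055 against 52154. These members and RPL13AP5 were singled out after their values were seen. The counts are of uniquely mapped fragments. How fragments of a gene and of its near-identical copies were assigned was not tested, so the level of these members is uncertain.

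Within a library, the members together took 5.63% of all counts in control replicate 1, 3.25% in control replicate 2, 3.97% in USP12 replicate 1 and 3.64% in USP12 replicate 2. Control replicate 1 was the highest and control replicate 2 the lowest, with both USP12 libraries between them. The exact 95% binomial intervals, which cover counting error only, were at most 0.03 percentage points wide. The group means were 4.44% ± 1.68 for control and 3.80% ± 0.237 for USP12 (SD, n = 2 each), a difference of -0.633 percentage points that was smaller than the spread between the controls (two-sided exact permutation test, p = 1.0, where 0.33 is the smallest p that 4 libraries allow). The large-subunit genes took 3.40% and 1.97% in the controls and 2.42% and 2.20% in the USP12 libraries, and the small-subunit genes 2.23%, 1.28%, 1.55% and 1.43% in the same order. The pseudogene rows added 2.25%, 1.20%, 1.42% and 1.29%, again in that order. The share of mitochondrially encoded genes also differed between the libraries, at 13.8% and 14.5% in the controls and 25.3% and 23.2% with USP12. With these genes left out of the total, the members took 6.53% and 3.80% in the controls and 5.32% and 4.73% with USP12, and the order of the libraries stayed as it was.

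**Figure D2:**
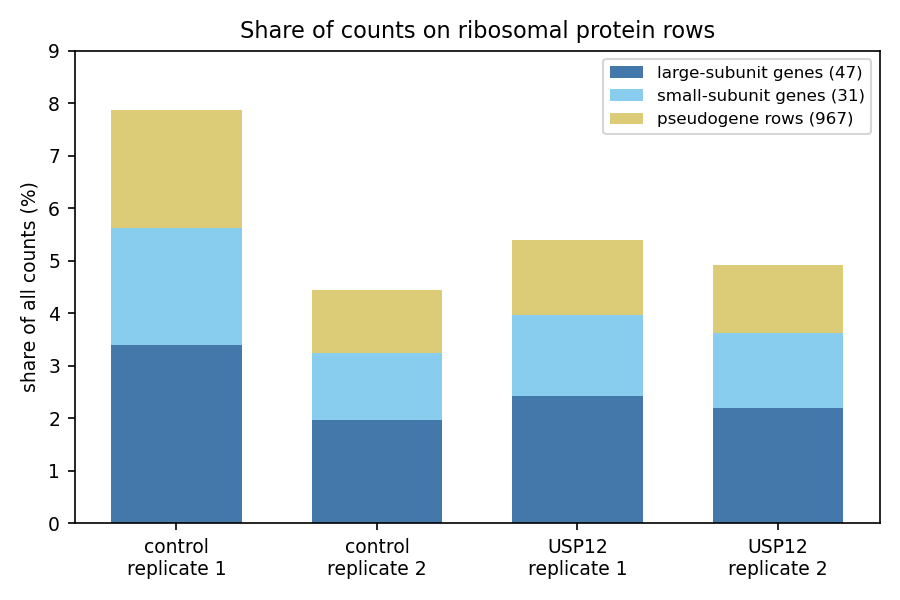
Bars give the share of all counts (y axis, %) on the 47 large-subunit genes, the 31 small-subunit genes and the 967 pseudogene rows in each of the 4 libraries (x axis). All 3 classes are largest in control replicate 1, where the members took 5.63% of counts, and smallest in control replicate 2, where they took 3.25%.

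Between the control libraries, the members differed by more than the groups did. The family was chosen with a difference between the control libraries already known, so the values here describe that difference and are no independent finding. On the log2 CPM scale, control replicate 1 was above control replicate 2 in 74 of 78 members, against 49.5% of all genes tested, with a median difference of 0.99 (SD over members 0.48) against -0.01 for all genes. The difference was at least 1 log2 unit in 39 members, against 20.6% of all genes. RPS3, which lies at the mRNA entry of the small subunit, had 1013 CPM in control replicate 1 and 297.4 CPM in control replicate 2, a log2 difference of 1.77. RPS19, the protein most often mutated in Diamond-Blackfan anaemia, had 1210.1 and 375.6 CPM, a difference of 1.69. RPS10 and RPL26 followed with differences of 1.68 and 1.60. In the USP12 libraries, RPS3 had 417.6 and 452.2 CPM, and RPS19 654.6 and 536.0 CPM, both between the control values. The remaining 4 members, which were not higher in control replicate 1, were RPL10A (-0.39), RPL11 (-0.10), RPL14 (-0.10) and RPL6 (-0.01).

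In the spread of their ratios over the members, the 3 other libraries resembled each other more closely. The SD of the log2 ratio over the 78 members was 0.24 between control replicate 2 and USP12 replicate 1, 0.25 between control replicate 2 and USP12 replicate 2, and 0.24 between the USP12 libraries. It was 0.48, 0.54 and 0.55 in the 3 pairs that contain control replicate 1. The SD leaves out shifts that the members share. Over USP12 replicate 1, the median log2 ratio was -0.51 for control replicate 2 and 0.53 for control replicate 1. Over USP12 replicate 2, the median was -0.28 and 0.72 in the same order. USP12 replicate 1 was above USP12 replicate 2 in 70 of 78 members, by a median of 0.22. The widest gap between the USP12 libraries was that of RPL29, singled out after its values were seen, a large-subunit protein with 612.2 and 378.3 CPM in the controls and 560.6 and 185.8 CPM with USP12. RPL29 was low in USP12 replicate 2 alone.

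**Figure D3:**
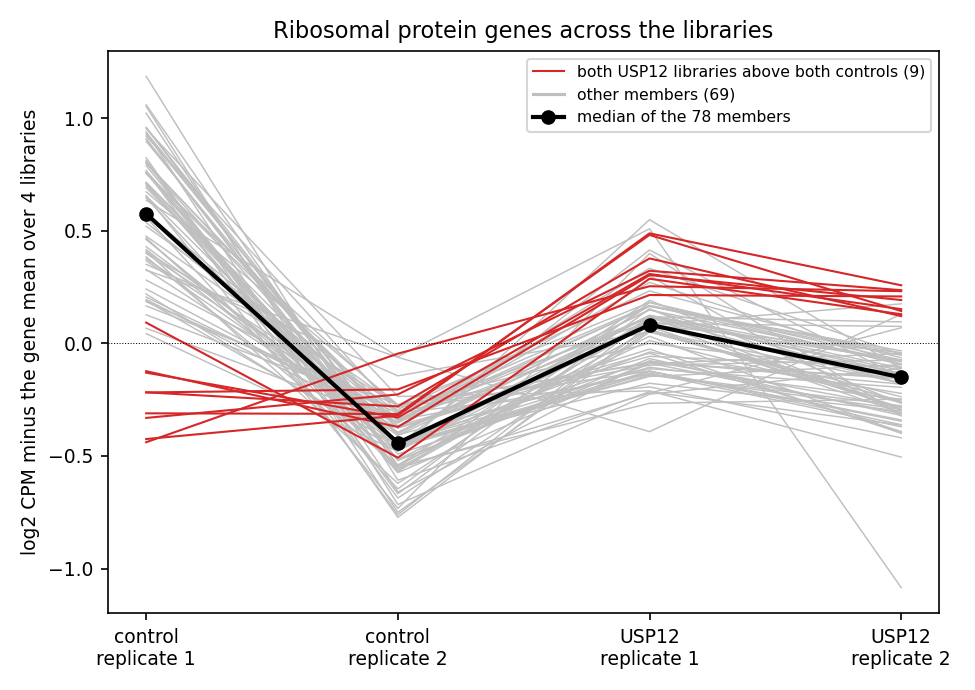
Each line is 1 of the 78 members across the 4 libraries (x axis), as log2 CPM minus the gene's own mean over the libraries (y axis), with the median of all members in black. Most lines are highest in control replicate 1 and lowest in control replicate 2, and the 9 red lines are the members with both USP12 libraries above both controls.

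With USP12 overexpression compared with control, none of the 78 members passed an adjusted p of 0.05. In edgeR's quasi-likelihood test, 0 members were lower and 0 higher (0.0% of all 15222 genes in either direction), and 0 members had an unadjusted p under 0.05 in either direction, against 4.55% of all genes lower and 3.04% higher. DESeq2's Wald test also called 0 members, against 1.79% of all genes lower and 0.874% higher. The median log2 fold change was -0.24 over the members (quartiles -0.41 and 0.09), beside -0.06 over all genes tested. It was -0.22 for the large and -0.25 for the small subunit. The point estimate was below 0 in 56 members and above 0 in 22, against 53.6% of all genes below 0. Standard errors ran from 0.29 to 0.72 on the log2 scale, and the adjusted p-values from 0.684 to 0.999.

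The sign of the family median depended on which control library was used. Against control replicate 1 alone, the mean of the USP12 libraries was lower, with a median log2 difference of -0.65, and both USP12 libraries were below it in 63 of 78 members (80.8%, against 42.3% of all genes). Against control replicate 2 alone it was higher, with a median of 0.39, and both USP12 libraries were above it in 69 members (88.5%, against 41.5% of all genes). Both USP12 libraries lay between the controls in 54 members (69.2%, against 36.7% of all genes). Control replicate 1 was the highest of the 4 libraries in 63 members (80.8%, against 36.5% of all genes), and control replicate 2 the lowest in 65 (83.3%, against 29.4%). When the test was run without control replicate 2, 34 members had a lower and 2 a higher level with an adjusted p below 0.05 (43.6% and 2.56%), against 16.3% and 15.9% of the genes tested in that fit. Without control replicate 1, 0 members were called in either direction by edgeR, against 5.74% of genes lower and 4.73% higher. Each of these fits has 1 control library, whose spread is assumed to be that of the other group.

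Members among those with the lowest fold changes had high values in control replicate 1. RPL36 had 262.6 and 115.2 CPM in the controls and 117.2 and 95.6 CPM with USP12 (log2 fold change -0.83 ± 0.48 (SE), adjusted p = 0.839 in edgeR's test). RPL35 had 1170 and 499.4 CPM in the controls and 540.5 and 462.1 CPM with USP12 (-0.74 ± 0.47, adjusted p = 0.864). In both large-subunit genes, 1 USP12 library lay above control replicate 2 and 1 below it, so the groups overlapped. RPLP0 had 3398 and 1118 CPM in the controls and 1356 and 1373 CPM with USP12 (-0.73 ± 0.53, adjusted p = 0.891). In RPLP0, both USP12 libraries were above control replicate 2 and below control replicate 1. Its log2 fold change was 0.29 without control replicate 1, and -1.29 (adjusted p = 0.00683 in edgeR's test) without control replicate 2.

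No member had both USP12 libraries below both controls, against 17.0% of all genes tested, and 9 members had both above both controls (11.5%, against 19.5% of all genes). Both counts depended on the scaling, with 6 members below and 10 above both controls when library totals alone were used, and 5 below and 15 above with a per-library offset for transcript length and GC content. Shares over all genes were computed for the main scaling only, so the counts under the other scalings have no share beside them. The 9 were RPL11, RPS4X, RPL14, RPS13, RPL4, RPL10A, RPS6, RPL6 and RPL23A, of which RPL10A and RPL6 were named after their values were seen. RPL11, which binds MDM2 when ribosome assembly is disturbed, had 282.7 and 303.8 CPM in the controls and 532.5 and 453.8 CPM with USP12. Its log2 fold change was 0.75 ± 0.32 (adjusted p = 0.684 in edgeR's test), and it lay between 0.64 and 0.86 with each library left out in turn, passing the threshold only without control replicate 2 (adjusted p = 0.0289). RPS4X, the X-linked small-subunit protein, had 804.2 and 802.7 CPM in the controls and 1393 and 1102 CPM with USP12 (0.63 ± 0.31, adjusted p = 0.766). In both genes the control libraries were close together and both USP12 libraries were higher. RPL14 had 93.4 and 100.4 CPM in the controls and 146.9 and 138.4 CPM with USP12 (0.56 ± 0.34, adjusted p = 0.849). RPS13 had 169.4 and 162.2 CPM in the controls and 255.8 and 214.2 CPM with USP12 (0.50 ± 0.33, adjusted p = 0.871). RPL4 had 1796 and 1512 CPM in the controls and 2414 and 2236 CPM with USP12 (0.49 ± 0.29, adjusted p = 0.839). None of these differences passed the test. RPL4 also hosts 5 annotated small nucleolar RNAs in its introns.

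**Figure D4:**
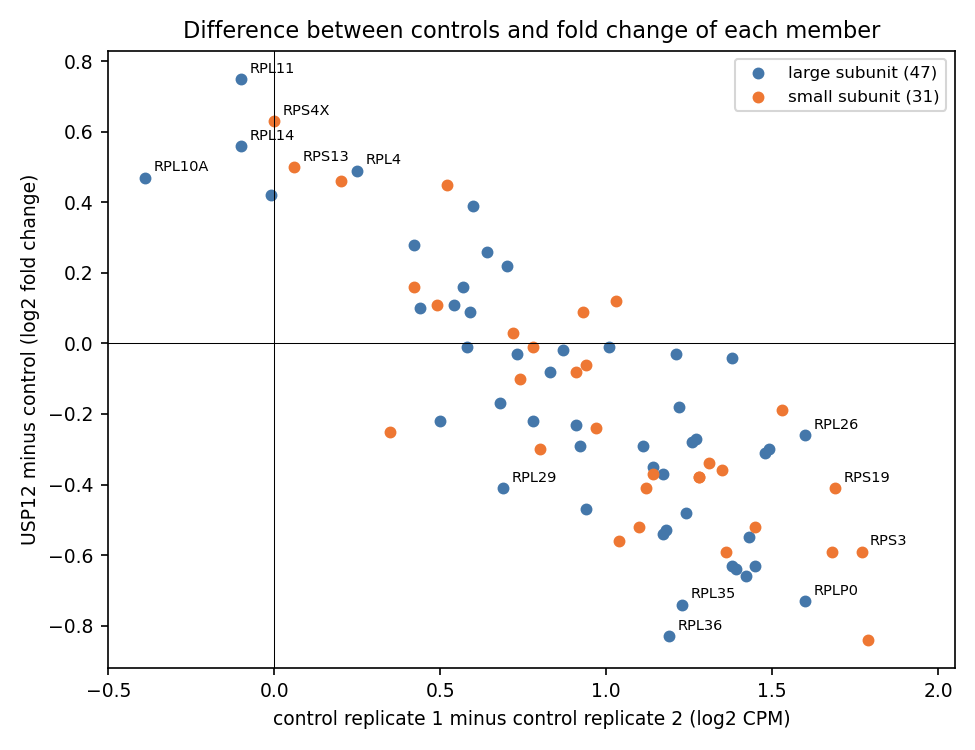
For each of the 78 members, the log2 CPM difference between control replicate 1 and control replicate 2 (x axis) is plotted against the log2 fold change of USP12 over control (y axis), coloured by subunit. Both axes use the control libraries, so they are not independent. RPL11 is highest at 0.75 with a control difference of -0.10, and RPS3 lies at -0.59 with a control difference of 1.77.

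The remaining members named for their roles had groups that overlapped, with the exceptions of RPS6 and RPL23A. RPS6, the substrate of the S6 kinases downstream of mTOR, had 847.1 and 737.7 CPM in the controls and 1148 and 1030.0 CPM with USP12 (0.46 ± 0.30, adjusted p = 0.870). RPL23A had 72.6 and 47.9 CPM in the controls and 83.1 and 74.5 CPM with USP12 (0.39 ± 0.39, adjusted p = 0.939). When each member was summed with the pseudogene rows of its name, RPL23A had 1145 and 721.9 CPM in the controls and 1067 and 916.2 CPM with USP12, so that its groups overlapped. In the same sums RPL21 had 291.4 and 245.7 CPM in the controls and 420.4 and 351.9 CPM with USP12, so that its groups no longer overlapped.

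RPL5, which joins RPL11 and a small ribosomal RNA in a particle of its own, had 344.8 and 258.0 CPM in the controls and 414.7 and 318.3 CPM with USP12 (0.28 ± 0.35). RPS27A, whose protein is made as a fusion with ubiquitin, had 113.3 and 57.8 CPM in the controls and 82.5 and 62.1 CPM with USP12 (-0.24 ± 0.46). RPSA, which is also known as the laminin receptor, had 1777 and 733.1 CPM in the controls and 988.3 and 945.7 CPM with USP12 (-0.38 ± 0.46). In RPS27A and RPSA the USP12 libraries lay between the controls, and in RPL5 USP12 replicate 1 was the highest. The stalk proteins RPLP1 and RPLP2 had log2 fold changes of -0.55 ± 0.51 and -0.29 ± 0.42, and RPS3 had -0.59 ± 0.58. RPL22 (-0.03 ± 0.43), RPL39 (-0.04 ± 0.60) and RPL41 (0.09 ± 0.38) were close to 0.

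RPL36A and RPL36AL encode nearly identical proteins from different chromosomes. RPL36A, on the X chromosome, had 20.1 and 12.4 CPM in the controls and 18.3 and 19.5 CPM with USP12. RPL36AL, on chromosome 14, had 141.4 and 100.3 CPM in the controls and 114.8 and 92.8 CPM with USP12. Per length, RPL36AL was higher, at 166.2 against 23.1 CPM per kilobase, with 45.3% of the RPL36A windows copied elsewhere and 0.173% of those of RPL36AL. Neither fold change passed the test (0.22 ± 0.47 and -0.22 ± 0.37).

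Transcript length and base composition moved with the difference between the controls. Members had a median transcript length of 690 bases and a median GC content of 49.0%. Among genes that are not members, the median log2 difference of control replicate 1 over control replicate 2 was -0.95, -0.51, 0.32 and 0.94 from the lowest to the highest quartile of GC content, and 0.51, 0.26, -0.20 and -0.70 from the shortest to the longest quartile. In transcripts under 1000 bases with a GC content of at least 50%, the median was 0.86 in 1099 other genes and 1.18 in 28 members. In transcripts under 1000 bases with a lower GC content it was 0.01 in 770 other genes and 0.93 in 31 members. The members were thus above the other genes of the same class in both. Among the members, the fold change and GC content had a Pearson correlation of -0.49 (Spearman -0.51) over the 78 genes, which share libraries. With a per-library offset for length and GC content, the median difference between the controls over the members was 0.63, and the median log2 fold change over the members was -0.09 beside 0.06 over all genes. The part of length and GC content in the fold changes was not tested.

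**Figure D5:**
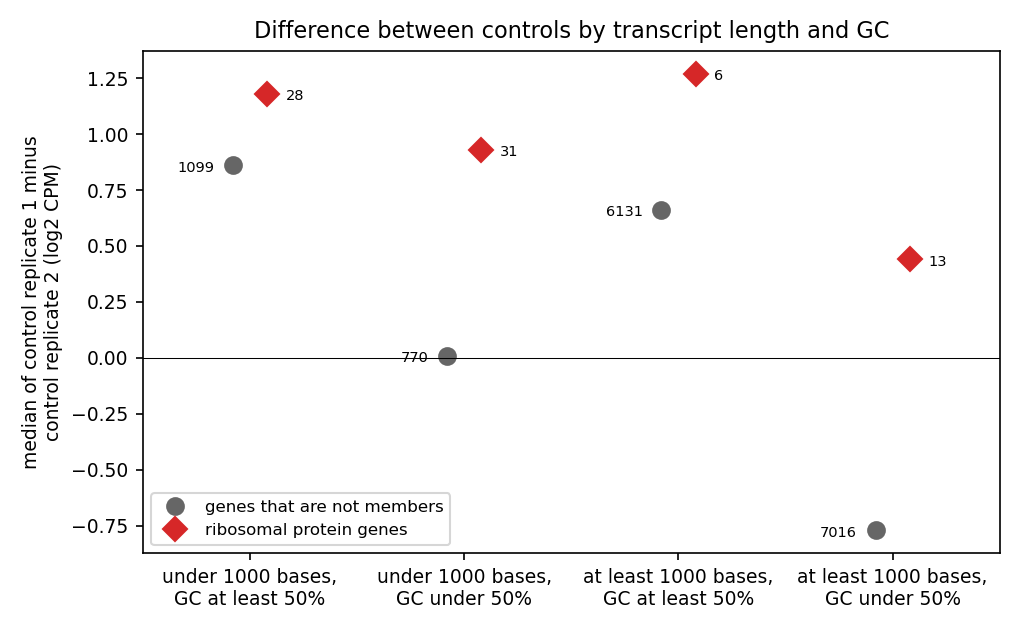
Points give the median log2 CPM difference of control replicate 1 over control replicate 2 (y axis) in 4 classes of transcript length and GC content (x axis), for members (diamonds) and all other tested genes (circles), with the number of genes beside each point. Members lie above the other genes in every class, for example at 0.93 against 0.01 for short transcripts with a GC content under 50%.

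The associated proteins FAU and RACK1, which fall outside the name rule, had both USP12 libraries between the controls, like most members, and the tested paralogs of the family did not. FAU, a fusion of a ubiquitin-like protein with a small-subunit protein, had 283.9 and 100.8 CPM in the controls and 134.8 and 104.7 CPM with USP12 (-0.68 ± 0.54). RACK1, a signalling scaffold on the small subunit, had 516.7 and 273.0 CPM in the controls and 455.2 and 391.2 CPM with USP12 (0.10 ± 0.41). Of 7 paralogs, 5 were tested, of which 0 had both USP12 libraries between the controls, and their median control difference was 0.29, from -2.02 for RPL7L1 to 1.24 for RPS27L. RPL7L1 had 17.3 and 70.9 CPM in the controls and 29.2 and 72.3 CPM with USP12, low in both libraries numbered 1. The log2 fold change was 0.20 ± 0.76 for RPL7L1, 0.04 ± 0.45 for RPL22L1, 0.09 ± 0.44 for RPL26L1, -0.47 ± 0.49 for RPL39L and 0.61 ± 0.50 for RPS27L, and none passed the test. RPL3L had 0 counts in every library, and RPL10L at most 1 count.

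Other mRNAs known to start with a TOP motif were split in how the controls stood to each other. Among 15 such genes that are not ribosomal proteins, chiefly translation factors, the log2 difference of control replicate 1 over control replicate 2 was above 0 in 8 and had a median of 0.11 (SD 0.82), from -0.85 for NAP1L1 to 1.43 for EEF1G. The median log2 fold change was 0.19. Whether this list differed from the members was not tested. EEF1A1, an elongation factor, had 814.6 and 1135 CPM in the controls and 1803 and 1288 CPM with USP12 (0.66 ± 0.35). EEF2, the translocation factor, had 7208 and 2768 CPM in the controls and 3025 and 3127 CPM with USP12 (-0.70 ± 0.47). TPT1 had 1424 and 583.6 CPM in the controls and 1241 and 776.2 CPM with USP12 (0.01 ± 0.50). EEF2 and TPT1 were highest in control replicate 1, whereas EEF1A1 was lowest there. At an adjusted p under 0.05, 0 of the 15 were called by edgeR's test and 0 by DESeq2's Wald test, with 0 at an unadjusted p under 0.05 in either.

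Other families of the protein synthesis pathway, and oxidative phosphorylation and proteasome genes from outside it, differed in how the controls stood to each other. In 49 ribosome biogenesis genes the median control difference was -0.65, opposite in sign to that of the members, and the median log2 fold change was -0.01. In that list NPM1, a nucleolar chaperone, had 378.6 and 439.7 CPM in the controls and 542.9 and 483.3 CPM with USP12 (0.33 ± 0.32). In 78 mitochondrial ribosomal proteins the control difference was 0.66 and the fold change -0.12. Nuclear genes for oxidative phosphorylation, of which 78 of 84 were tested, had 0.86 and -0.33, and 37 of 39 proteasome subunits had 0.37 and -0.13. At an adjusted p under 0.05, 0 genes of these 4 lists were called by edgeR and 0 by DESeq2, and at edgeR's unadjusted p under 0.05 there were 0 biogenesis genes, 2 mitochondrial ribosomal proteins lower and 2 higher, 0 oxidative phosphorylation genes and 2 proteasome subunits lower.

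Among regulators of the family, edgeR called 0 genes at an adjusted p under 0.05 and 1, MYC, had an unadjusted p under 0.05, whereas DESeq2's Wald test called MYC alone. The median log2 fold change was -0.13 in 14 genes of mTOR signalling and TOP mRNA control, 0.25 in 6 factors that bind ribosomal protein promoters and -0.03 in 4 genes of the p53 axis. EIF4EBP1, a translation repressor phosphorylated by mTOR, had 206.0 and 241.7 CPM in the controls and 192.6 and 191.4 CPM with USP12 (-0.22 ± 0.33). MYC, an activator of ribosome synthesis, had 40.4 CPM in control replicate 1, 2.16 CPM in control replicate 2, and 2.45 and 2.70 CPM with USP12 (-3.04 ± 1.24, adjusted p = 0.655 in edgeR's test and 0.0383 in DESeq2's). Without control replicate 1 its log2 fold change was 0.25. MYC was thus high in control replicate 1 alone, the library in which most members were also highest, and its part in the members' levels was not tested. CDKN1A, a p53 target that arrests the cell cycle, had 593.1 and 97.1 CPM in the controls and 256.1 and 242.7 CPM with USP12 (-0.47 ± 0.77). MDM2, the ubiquitin ligase of p53, had 10.4 and 40.6 CPM in the controls and 14.9 and 30.9 CPM with USP12 (-0.16 ± 0.74). The groups overlapped in CDKN1A and MDM2, and both USP12 libraries were below both controls in EIF4EBP1.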

How the data were processed

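RNA was measured in 4 A549 libraries, 2 control and 2 USP12, grouped by the treatment label. Per the study's methods, the authors removed adaptors and ribosomal RNA with Seqtk, mapped to GRCh38 with HISAT2 (2.0.4 in the submitters' processing notes) and deposited raw counts of uniquely mapped fragments per gene from StringTie (1.3.0). Annotation release and use of strand in counting were not given in the sources used here, so overlapping genes are uncertain: 13 members overlap another gene on their own strand and 32 on the other. The ribosomal protein genes and all gene lists were chosen with earlier results of these data known.

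The whole table was fitted in R 4.3.3 with edgeR 4.0.16 (TMM, filterByExpr, quasi-likelihood test, Benjamini-Hochberg over 15222 genes). CPM are TMM-scaled, with a prior count of 2 added before taking log2. Standard errors are approximate (the fold change over the root of F). The fit was tested on simulated data with planted changes and the same expected level in both controls. That test does not cover the difference between the real control libraries. Lengths, GC content and snoRNA positions came from GENCODE 44, matched by identifier for 99.2% of tested genes, with the length offset from mgcv 1.9.3. Copies were exact 100-base matches in GRCh38. Scripts used Python 3.11.15.

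Named members were the 5 highest and 5 lowest fold changes, the 5 highest and 3 lowest levels per length, the 5 largest control differences and 17 chosen by role; others are marked, and some genes that the rule names are not reported here. Alternatives were other scalings and filters, DESeq2 1.42.0, a replicate block, the length and GC offset, leaving out each library and, chosen after seeing the data, summing members with their pseudogene rows. Intervals and floors cover counting error only. The check of protein sequences was not run, as no protein table was used here.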

Additional observations from a re-analysis of the deposited data

How the results depend on the processing

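RPS28 had the fewest counts of the members, at between 14 and 23 per library, and 2 libraries per group limited every test. The pseudogene rows of RPS28 held 17786 counts, and the part of depth and of near-identical copies in its low count was not tested. Libraries weighed more than settings. When the libraries were dropped 1 at a time, the counts of members called ran from 0 to 34 lower and from 0 to 2 higher, all of them without control replicate 2, and the counts over all genes from 28 to 2612 lower and from 12 to 2550 higher. The median log2 fold change then ran from -0.62 to 0.40 over the members, from -0.59 to 0.37 for the large and from -0.62 to 0.43 for the small subunit, with the highest value in each case without control replicate 1. The difference in the members' share of counts ran from -1.82 to 0.555 percentage points, positive only without control replicate 1.

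As for the members, some related lists had a higher median without control replicate 1 than without control replicate 2. They were pseudogene rows (range over the libraries left out -0.28 to 0.46), oxidative phosphorylation (-0.66 to 0.19), mitochondrial ribosomal proteins (-0.32 to 0.08) and the proteasome (-0.28 to 0.05). The order was the opposite in ribosome biogenesis (-0.15 to 0.47), mTOR and TOP regulators (-0.30 to 0.26), promoter factors (-0.03 to 0.81), the p53 axis (-0.12 to 0.53) and the paralogs (-0.14 to 0.28). Other TOP mRNAs ran from 0.14 to 0.42, with 0.38 and 0.42 without control replicates 1 and 2.

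Single fold changes that changed sign with a library left out ran, among the members, from -1.29 to 0.29 for RPLP0, -1.19 to 0.01 for RPL35, -1.19 to 0.55 for RPS3, -1.17 to 0.48 for RPS10, -1.14 to 0.21 for RPL13A, -1.07 to 0.33 for RPLP1, -0.99 to 0.67 for RPS19, -0.85 to 0.40 for RPSA, -0.82 to 0.75 for RPL26, -0.75 to 0.51 for RPL9, -0.65 to 0.24 for RPLP2, -0.64 to 0.55 for RPL28, -0.62 to 0.32 for RPS27A, -0.54 to 0.81 for RPL39, -0.53 to 0.00 for RPS28, -0.42 to 0.05 for RPL36AL, -0.36 to 0.38 for RPL22, -0.15 to 0.41 for RPL41 and -0.06 to 0.61 for RPL36A. Among other genes they ran from -3.94 to 0.25 for MYC, -1.22 to 1.36 for CDKN1A, -1.22 to 0.25 for FAU, -1.20 to 0.15 for EEF2, -0.82 to 1.17 for MDM2, -0.80 to 0.02 for RPL39L, -0.62 to 1.58 for RPL7L1, -0.47 to 0.79 for TPT1, -0.26 to 0.63 for RACK1, -0.24 to 0.28 for RPL22L1 and -0.14 to 0.30 for RPL26L1.

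No other setting called a member. Over all genes, 1 was lower with library totals alone, and 361 were lower and 167 higher with no filter on low counts. DESeq2's Wald test gave 273 and 133, and the length and GC offset 13 and 6. In the fit with no filter, the prior degrees of freedom were infinite, so a gene's own spread did not enter, for MYC as for other genes. The median control difference of the members was 0.73 with library totals alone and 0.63 with the offset, and 1.00 when members were summed with their pseudogene rows. Other TOP mRNAs had a median fold change of 0.17 with DESeq2's size factors and its Wald test, 0.21 with no filter and 0.14 with the offset, and mTOR and TOP regulators 0.08 with the offset. MYC passed the threshold with no filter (adjusted p = 0.000947), with DESeq2's Wald test and without control replicate 2, with an adjusted p between 0.00135 and 1.0 over the libraries left out. TPT1 was at -0.02 with DESeq2's size factors and Wald test, and RPL22L1 at -0.02 with library totals. With the offset, RPL28 was at 0.35, RPLP2 at 0.04, RPS19 at 0.13, TPT1 at -0.31, MDM2 at 0.09, CDKN1A at 0.32 and EIF4EBP1 at 0.03. The cause of these shifts was not tested.

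The groups share replicate numbers 1 and 2, and nothing says that a number marks a shared culture or day. Libraries of the same number deviated from their group means with a correlation of 0.152 over 15222 genes. In a fit with a replicate block, 251 genes were lower and 153 higher, 0 of them members, the members' median was -0.14 and that of other TOP mRNAs 0.21, with RPL39 at 0.07, MDM2 at 0.06 and CDKN1A at 0.05. In that block fit, the prior degrees of freedom were infinite, so a gene's own spread did not enter. The same held with no filter on low counts and in the fits without either USP12 library. With the block and the offset together, 159 genes were lower and 116 higher, mTOR and TOP regulators had a median of 0.14, and RPL28 was at 0.34, RPLP2 at 0.04, RPS19 at 0.15, TPT1 at -0.04, MDM2 at 0.10, CDKN1A at 0.48 and EIF4EBP1 at 0.24.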
